A study of Mus musculus with 14 samples.

Results

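The replication-dependent histone genes were chosen by name, as the protein-coding genes of the mm9 annotation whose symbols begin with Hist1, Hist2, Hist3 or Hist4. There were 67 of them among 22367 protein-coding genes on the autosomes and the sex chromosomes. For each gene, the ATAC-seq peaks within 1 kb of any annotated start were taken as its promoter peaks, and the peaks farther than that from every such start but inside a cluster were taken as peaks between the genes. Accessible DNA had been mapped by bulk ATAC-seq, in which a transposase inserts adapters into open chromatin, in 4T1 cells, a single mouse mammary tumor line grown in culture. The 6 hypoxia groups had been exposed to 1% oxygen, for 6, 12, 24, 36, 48 or 72 h, and the control group had been cultured in normoxia. Values given for the hypoxia times in order follow that sequence. Each of the 7 groups had 2 samples, 14 in all, with no genetic difference between them in the labels. The labels give no oxygen level for the normoxic samples, and the treatment text attached to them is the same 1% protocol, whereas the legend of a flow cytometry panel on this cell line puts its control cells at 5% oxygen. Normoxia is used here as the labels use it. The data used were 7 peak lists, each called on the 2 samples of a group together, so no value given here has a replicate error and no test between conditions was possible. Nothing in the labels says whether the samples of a group came from separate cultures.

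Replication-dependent histone genes encode the bulk of the core histones H2A, H2B, H3 and H4 and of the linker histone H1 that package newly copied DNA. They lie in clusters, lack introns in most cases, are transcribed chiefly in S phase, and give mRNAs that end in a stem-loop in place of a poly(A) tail. Their transcription is organized by NPAT in nuclear bodies that form at the clusters, and H2A and H2B genes are often arranged head to head over a shared promoter.

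The 67 genes comprised 6 H1, 19 H2A, 18 H2B, 11 H3 and 13 H4 genes. Hist1, the main cluster on chromosome 13, held 55 of them. In mm9 coordinates (NCBIM37), 23 lay in a first block at chr13:21807632-22135545 and 31 in a second block at chr13:23622919-24026720, with a stretch of 1487 kb without a member between the blocks. The remaining Hist1 gene, Hist1h2al at chr13:51298057-51298434, was annotated 27271 kb beyond the second block and was left out of the cluster span. Hist2 held 9 genes at chr3:96023839-96082924, Hist3 held 2 genes at chr11:58762413-58770176, and Hist4 was the single gene Hist4h4 at chr6:136752589-136752900. The starts of 26 genes faced each other within 1 kb in 13 divergent pairs, and 12 of these pairs joined an H2A and an H2B gene, with 167 to 305 bases between the starts.

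The promoter stretches below are shown because they carry the elements for which histone promoters are known and because the accessibility values that follow refer to them. They are reference sequence of NCBIM37. For a single gene the 250 bases before the annotated start are given on the strand of the gene, and for a divergent pair the whole stretch between the starts is given on the plus strand. Capitals mark matches, on either strand, to the CCAAT box, to the TATA box in its form TATAAA, to the octamer ATTTGCAT, to the motif TTTNGCGC and to the H1 element AAACACA. The first 5 stretches belong to the gene of each class with the highest mean rank of fold enrichment, namely Hist1h1e at chr13:23714372-23714621 (minus strand), the pair Hist1h2ac and Hist1h2bc at chr13:23775818-23776067, Hist1h2bh at chr13:23635229-23635478 (minus strand), Hist1h3e at chr13:23654239-23654488 (minus strand) and Hist1h4c at chr13:23790324-23790573 (minus strand). For Hist1h1e the highest peak lay nearer to its neighbor Hist1h2be than to its own start.
Hist1h1e: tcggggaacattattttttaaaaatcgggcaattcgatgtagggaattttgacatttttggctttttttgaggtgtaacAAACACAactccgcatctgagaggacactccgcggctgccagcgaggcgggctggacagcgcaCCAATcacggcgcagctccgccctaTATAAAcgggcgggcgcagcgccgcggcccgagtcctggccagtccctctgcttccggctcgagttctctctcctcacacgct
Hist1h2ac-Hist1h2bc: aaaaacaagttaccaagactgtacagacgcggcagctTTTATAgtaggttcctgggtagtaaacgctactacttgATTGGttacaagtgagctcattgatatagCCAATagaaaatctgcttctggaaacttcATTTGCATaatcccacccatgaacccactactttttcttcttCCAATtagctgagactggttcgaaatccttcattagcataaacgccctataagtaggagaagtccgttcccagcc
Hist1h2bh: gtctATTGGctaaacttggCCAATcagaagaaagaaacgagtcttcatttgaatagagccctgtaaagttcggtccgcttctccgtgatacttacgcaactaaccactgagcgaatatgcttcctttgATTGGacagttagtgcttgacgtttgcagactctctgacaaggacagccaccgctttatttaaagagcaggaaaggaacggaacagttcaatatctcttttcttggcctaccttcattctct
Hist1h3e: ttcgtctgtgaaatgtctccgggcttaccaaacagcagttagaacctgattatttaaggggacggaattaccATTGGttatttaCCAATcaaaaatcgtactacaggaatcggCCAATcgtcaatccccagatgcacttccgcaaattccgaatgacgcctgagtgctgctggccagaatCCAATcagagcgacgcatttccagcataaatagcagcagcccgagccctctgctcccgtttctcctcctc
Hist1h4c: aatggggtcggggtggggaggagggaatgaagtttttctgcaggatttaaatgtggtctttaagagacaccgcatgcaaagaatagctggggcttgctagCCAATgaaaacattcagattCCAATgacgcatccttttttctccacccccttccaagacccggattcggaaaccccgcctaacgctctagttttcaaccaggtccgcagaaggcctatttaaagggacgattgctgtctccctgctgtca

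For contrast, the next set gives Hist1h3i at chr13:21875267-21875516 (minus strand), which had the lowest mean rank, Hist1h1t at chr13:23787430-23787679 (plus strand), which had no promoter peak in any list, and the Hist2 pair Hist2h2ac and Hist2h2be at chr3:96024804-96025043. All 3 stretches hold a CCAAT match, as did the windows of all 8 members without a promoter peak in any list.
Hist1h3i: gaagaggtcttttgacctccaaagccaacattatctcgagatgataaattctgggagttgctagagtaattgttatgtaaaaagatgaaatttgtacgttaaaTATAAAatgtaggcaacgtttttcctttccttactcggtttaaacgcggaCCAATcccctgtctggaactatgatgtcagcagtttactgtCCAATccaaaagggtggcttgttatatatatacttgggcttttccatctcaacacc
Hist1h1t: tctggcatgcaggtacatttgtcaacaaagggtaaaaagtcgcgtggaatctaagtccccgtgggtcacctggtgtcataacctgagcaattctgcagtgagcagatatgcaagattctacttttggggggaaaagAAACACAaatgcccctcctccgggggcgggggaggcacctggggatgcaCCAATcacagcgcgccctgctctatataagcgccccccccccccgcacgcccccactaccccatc
Hist2h2ac-Hist2h2be: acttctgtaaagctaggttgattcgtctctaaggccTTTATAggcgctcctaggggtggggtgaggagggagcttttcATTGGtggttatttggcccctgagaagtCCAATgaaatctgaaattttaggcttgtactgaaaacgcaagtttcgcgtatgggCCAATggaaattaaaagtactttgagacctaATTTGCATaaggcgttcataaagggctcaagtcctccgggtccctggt

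The last set shows the stretch between Hist1h2bq and Hist1h2ao at chr13:21902069-21902235 and the stretch between Hist1h2ap and Hist1h2br at chr13:21925445-21925611, both without a peak in any list. Read on opposite strands, they were identical at all 167 of 167 bases.
Hist1h2bq-Hist1h2ao: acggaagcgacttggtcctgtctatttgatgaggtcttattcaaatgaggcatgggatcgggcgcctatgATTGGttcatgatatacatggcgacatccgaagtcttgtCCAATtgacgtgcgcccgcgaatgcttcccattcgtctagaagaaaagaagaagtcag
Hist1h2ap-Hist1h2br: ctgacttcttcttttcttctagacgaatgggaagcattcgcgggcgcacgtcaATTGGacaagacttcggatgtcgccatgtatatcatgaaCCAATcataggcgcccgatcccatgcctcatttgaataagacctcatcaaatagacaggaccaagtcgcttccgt

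Over windows of 300 bases, 250 before and 50 after the start, CCAAT was present in 57 of 67 members (85.1%), against 37.9% of all 22367 promoters. It was found in all 6 H1, 19 H2A and 18 H2B genes and in 10 of 11 H3 genes, but in only 4 of 13 H4 genes (30.8%). TATAAA was found in 38 members (56.7%, against 13.4% of all promoters). The octamer, the site of the POU factor OCT1 (Pou2f1), was found in 15 members (22.4%, against 1.73%), which were 7 H2A and 8 H2B genes and no H1, H3 or H4 gene. TTTNGCGC, which resembles a site of the cell cycle factor E2F, was found in 14 members (20.9%, against 1.69%), again only in H2A and H2B genes. AAACACA, an element known from H1 promoters, was found in 5 of 6 H1 genes and in 10 members in all (14.9%, against 6.42%). ACGTG or GCGTG, the core of the HIF site, was found in 28 members (41.8%), against 48.1% of all promoters. Every motif was searched on both strands, partners of a divergent pair share sequence and so share matches, and a match is no evidence of binding. The median GC content of these windows was 46.0% for members, 55.0% for all genes and 60.7% for genes with a promoter peak in all 7 lists.

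The lists held 49006 to 81732 peaks, fewest at 6 h and most at 12 h of hypoxia. A peak's fold enrichment is the ratio of reads piled up at its summit to the local background, as the authors' peak caller wrote it, and the reads behind each ratio were recovered from the deposited fold and p-value columns. The lowest background of a list, taken as its genome background, was 1.85 to 3.25 reads in the hypoxia lists, highest at 6 h, and 0.926 reads in normoxia. Members' summits held a median of 38 to 68 reads in the hypoxia lists and 38.5 reads in normoxia. Depth and background thus moved between lists together with the condition, and their part in the differences below was not tested. Of the markers checked, all 4 epithelial genes (Epcam, Krt8, Krt18 and Cdh1) had a promoter peak in every list, the immune genes Ptprc and Cd3e had none in any list, and 1 of 4 fibroblast and endothelial genes (Pdgfra) had one in all 7, with Cdh5 in none, Pecam1 in 3 and Col1a1 in 5 lists.

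Most replication-dependent histone genes had an accessible promoter whatever the condition. A promoter peak was called in all 7 lists at 50 of 67 members, against 46.6% of all genes. It was missing from every list at 8 members (42.3% of all genes) and was called in 1 to 6 lists at 9 members. Among the classes, a peak in all 7 lists was found at 4 of 6 H1, 13 of 19 H2A, 14 of 18 H2B, 9 of 11 H3 and 10 of 13 H4 genes. By the 1 kb rule, no H3 or H4 gene lacked a promoter peak in every list. By cluster, the counts were 40 of 55 in Hist1, 8 of 9 in Hist2, 1 of 2 in Hist3 and the single gene of Hist4. No test against other genes was made, because the members are neighbors that share peaks: the best peak of 32 to 37 members per list also lay at another member, and the 50 members stood for 34 distinct regions.

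In the lists as deposited, the number of members with a promoter peak differed little between times. It was 56 in normoxia, where 51.1% of all genes had one, and 54 at 6 h (49.7% of all genes). It was 58 at 12 h (54.3%), 57 at 24 h (52.6%) and 55 at 36 h (52.5%). It was 58 at 48 h (53.1%) and 55 at 72 h (51.1%). Both counts were lowest at 6 h, the list with the fewest peaks, and highest at 12 h, the list with the most peaks, where the members' count was the same as at 48 h. When each list was limited to its 20000 strongest peaks this order turned. The members' counts were then 31 in normoxia and 38, 28, 30, 35, 25 and 40 at the hypoxia times in order. The share of all genes was not computed under this limit, so the turned order cannot be set against that of other genes.

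Since the genes stand close together, a peak within 1 kb may belong to a neighbor. A stricter rule, chosen after seeing the data, asked for a peak over the start itself. It was met in all 7 lists by 42 members, against 41.4% of all genes, and these were 4 H1, 11 H2A, 14 H2B, 4 H3 and 9 H4 genes. It was met in no list by 13 members, among them the H3 gene Hist1h3f and the H4 gene Hist1h4m. The share of all genes in that state was not computed. Of the 393 best peaks of members, counted once per member and list, 75.6% covered a start, with 98% at H2B genes, 87.4% at H4 genes, 80% at H2A genes, 44.6% at H3 genes and 31.2% at H1 genes. Counted from the nearest start, with negative values upstream, the median summit lay at -64 bp for members and at -50 bp for all genes, and 55.5% of members' summits fell within 250 bp upstream, against 60.5% for all genes. For H1 genes the median summit lay 1087 bp downstream of the start. The best summit of Hist1h1b was 1031 to 1145 bp and that of Hist1h1e 878 to 1281 bp downstream over the 7 lists, past the annotated end of either gene.

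**Figure D1:**
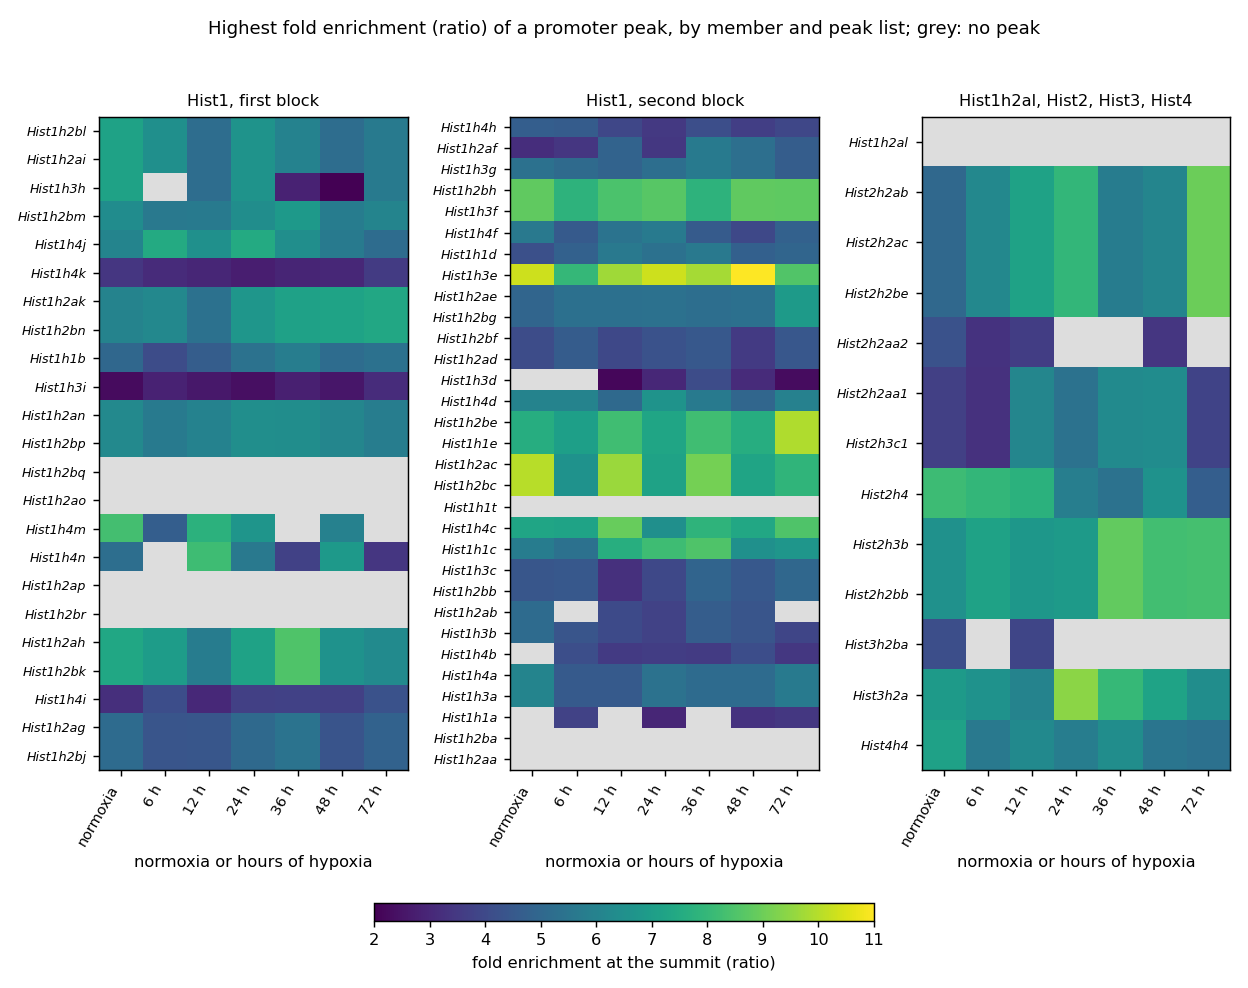
Highest fold enrichment of a promoter peak (color, a ratio) for each of the 67 members (rows, in genome order within each block) in normoxia and after each time in hypoxia (columns), with grey where no promoter peak was called. The 8 members without a peak in any list form grey rows, and partners of a divergent pair with a peak carry the same value because they share it.

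The 8 members without a promoter peak fell into unlike groups. Hist1h2bq, Hist1h2ao, Hist1h2ap and Hist1h2br are the copies shown above, and none of the 75-base words within 1 kb of their starts (0%) occurred only once in the genome. The authors kept only reads of high mapping quality, so at these 4 genes closed chromatin and a lack of mappable reads cannot be told apart. Hist1h1t, Hist1h2ba and Hist1h2aa encode the testis forms of H1, H2B and H2A, and 100%, 94.6% and 94.6% of their words were unique. The nearest peak to the Hist1h2ba and Hist1h2aa starts was 83975 to 171789 bp away over the 7 lists, so this end of the second block stood apart from any call. For Hist1h1t the nearest peak was 1692 to 2191 bp away. Hist1h2al, with 76.1% unique words, had its nearest peak 31585 to 74330 bp away. Over the 50 members with a peak in all 7 lists, the share of unique words was 45.8% to 100%, with a median of 84.3%.

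A further 9 members had a peak in some lists only. Of these, 6 had one in normoxia and lacked it in at least 1 hypoxia list, and 3 had none in normoxia and gained one in at least 1 hypoxia list. Together these were 9 of 67 members, against 11.1% of all genes that differed in either way. By the 1 kb rule, Hist1h4b, an H4 gene, was the only member without a normoxia peak that was called at all 6 hypoxia times. Its fold enrichment was 4.17, 3.52, 3.62, 3.57, 4.14 and 3.45 at the hypoxia times in order, from 30, 47, 39, 33, 54 and 32 summit reads. The nearest normoxia peak was 4053 bp away, so in this gene the missing call did not come from the 1 kb limit. The share of all genes with the pattern of Hist1h4b is not given here. This case thus does not set the members apart from other genes. A region at the start of the H3 gene Hist1h3a, chr13:23854105-23854692, was called in the same 6 lists. Its fold enrichment was 3.78, 3.56, 2.97, 3.14, 3.33 and 3.46 at the hypoxia times in order. Hist1h3a still counted as having a normoxia peak, through the peak of its neighbor Hist1h4a.

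Hist1h3d, an H3 gene, had a fold enrichment of 2.17, 3.01, 4.10, 3.12 and 2.30 at 12, 24, 36, 48 and 72 h, and no peak in normoxia or at 6 h. Hist1h1a, an H1 gene, had counted values of 3.78, 2.97, 3.33 and 3.46 at 6, 24, 48 and 72 h. These came from the region at the start of its neighbor Hist1h3a, chr13:23854105-23854692. That region was also called at 12 h (3.56) and 36 h (3.14), but more than 1 kb from the Hist1h1a start. In the opposite direction, Hist3h2ba, an H2B gene, had a peak of 3.89 at 12 h and 4.15 in normoxia, from only 12 and 7 summit reads, and none at the other times. All of these values lay below the members' median of the same list.

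Hist2h2aa2, an H2A gene of Hist2, had values of 4.28 in normoxia and 3.32, 3.63 and 3.42 at 6, 12 and 48 h. Hist1h4m and Hist1h4n, H4 genes beside the identical copies, had only 11% and 13.6% unique words. Hist1h4m reached 4.70 to 7.78 at 6, 12, 24 and 48 h and 8.31 in normoxia, without a peak at 36 and 72 h. Hist1h4n reached 3.41 to 8.2 at the hypoxia times other than 6 h and 5.24 in normoxia. The median summit lay 578 bp downstream of the Hist1h4m start and 637.5 bp downstream of the Hist1h4n start, past the end of either gene. A separate region over the Hist1h4n start, chr13:21923782-21924222, was called in every list but 6 h. Its fold enrichment was 3.41 to 5.46 in hypoxia and 3.40 in normoxia, and at 36 and 72 h it was the peak counted for Hist1h4n.

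The last pair of partial members turned on the distance rule. Hist1h3h, an H3 gene, had a peak in every list but 6 h, where the nearest peak was 1010 bp from the start. In normoxia and at 72 h the counted peak was that of Hist1h2bl and Hist1h2ai, 703 and 985 bp away. The region over the Hist1h3h start itself, chr13:21809228-21809643, was called only at 12, 24, 36 and 48 h, with a fold enrichment of 1.92 to 2.85. Hist1h2ab, an H2A gene, had its nearest peak 1054 and 1024 bp away at 6 and 72 h, where it was not counted, and 987 and 999 bp away at 36 and 48 h, where it was. Near the same limit, Hist1h1a had a peak 995 bp away at 6 h, and 1108 and 1146 bp away at 12 and 36 h. Hist1h3d had its nearest 6 h peak 1082 bp away. In these lists the call thus turned on the position of a peak's edge relative to the limit of 1 kb.

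**Figure D2:**
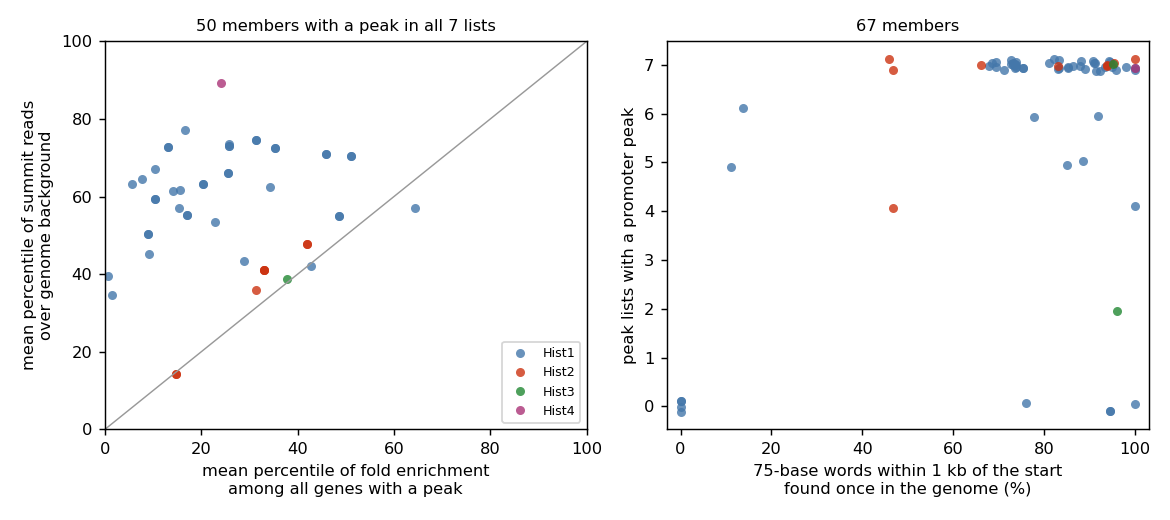
Left, mean percentile of fold enrichment (x axis) and of summit reads over the genome background (y axis) among all genes with a promoter peak, for the 50 members with a peak in all 7 lists, with a grey line where both are equal. Right, number of lists with a promoter peak (0 to 7, points spread slightly in height) against the percentage of 75-base words within 1 kb of the start found once in the genome, for all 67 members. Most Hist1 genes lie above the line, and the 4 members with 0% unique words had no peak.

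In the head-to-head arrangement, a single peak usually covered both genes. For 9 of the 12 divergent H2A and H2B pairs, 1 peak lay at both starts in all 7 lists, and the other 3 pairs, Hist1h2aa with Hist1h2ba and the identical copies, had no peak at all. Of these pairs, Hist1h2ac with Hist1h2bc had the highest mean percentile of fold enrichment, at values of 10.0 in normoxia and 6.60, 9.66, 7.19, 9.12, 7.25 and 7.88 at the hypoxia times in order. It was not the highest in every list, since Hist1h2ah with Hist1h2bk had 6.96 at 6 h, and Hist2h2ac with Hist2h2be had 7.95 at 24 h and 8.96 at 72 h. The thirteenth pair, Hist1h2bh with the H3 gene Hist1h3f, had starts 692 bases apart. The peak within 1 kb of both starts covered that of Hist1h2bh but not that of Hist1h3f. It stayed between 7.82 and 8.82 over all 7 lists, with a mean percentile of 51.0, against 48.7 for Hist1h2ac with Hist1h2bc.

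Relative to other promoters, the members had low fold enrichments. Their median was 5.90 in normoxia, against 9.14 for all genes with a promoter peak, and 5.49, 5.39, 5.85, 5.78, 5.42 and 5.71 at the hypoxia times in order, against 7.02, 9.17, 9.09, 8.25, 8.53 and 7.54 for all genes. The median member thus stood between percentiles 14.4 and 28.8 of the genes with a peak. Among the 50 members in all 7 lists, the highest mean percentile was that of Hist1h3e, an H3 gene, with a fold enrichment of 8.0 to 10.98 in hypoxia and 10.3 in normoxia (mean percentile 64.3). It was followed by Hist1h2bh and Hist1h3f (51.0) and by Hist1h2ac and Hist1h2bc (48.7). All but Hist1h3e, Hist1h2bh and Hist1h3f lay below the middle of all genes. The rank of Hist1h3f is that of the Hist1h2bh peak, which does not cover the Hist1h3f start. A separate region within Hist1h3f, chr13:23635983-23636891, was called in every list. Its fold enrichment was only 5.45 to 6.88 in hypoxia and 5.78 in normoxia.

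The lowest values belonged to an H3 gene and to H4 genes. Hist1h3i had a fold enrichment of 2.36 to 3.12 in hypoxia and 2.26 in normoxia (mean percentile 0.570), and Hist1h4k had 2.77 to 3.57 in hypoxia and 3.41 in normoxia (mean percentile 1.54). They were followed by Hist1h4i at 3.04 to 4.26 in hypoxia and 3.21 in normoxia, and by Hist1h4h at 3.48 to 4.60 in hypoxia and 4.67 in normoxia. The shared peak of Hist1h2ad and Hist1h2bf, an H2A and an H2B gene, had 3.54 to 4.61 in hypoxia and 4.10 in normoxia. By class, the median of the mean percentiles was 24.9 for H1, 25.8 for H2A, 28.6 for H2B, 16.6 for H3 and 19.9 for H4 genes. These medians lie close together against a range of 0.570 to 64.3 among H3 genes alone.

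The low ratios did not come with few reads at the summit. Divided by the genome background of its list, the median summit of members was 41.6 in normoxia, against 36.7 for all genes with a peak. At 6 h it was 11.7, against 12.6. At the later hypoxia times in order it was 29.1, 29.3, 23.0, 25.8 and 21.4 for members, against 25.6, 24.9, 19.8, 20.6 and 16.3 for all genes. On this scale the median member stood between percentiles 45.9 and 64.5. The local background was higher around members. It was 2.1 to 5.61 times the genome background in the hypoxia lists, against 1.46 to 2.23 times for all genes, and 6.92 times in normoxia, against 2.87 times for all genes.

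**Figure D3:**
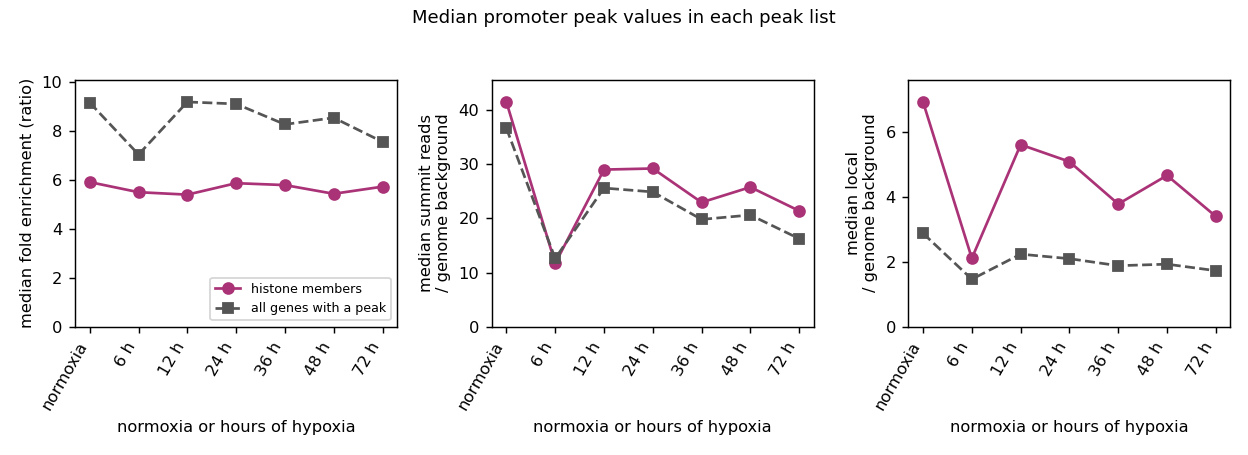
Median fold enrichment (left), median summit reads over the genome background (middle) and median local background over the genome background (right) of the members' promoter peaks (circles) and of all genes with a promoter peak (squares) in normoxia and after each time in hypoxia. The members lie below all genes in the left panel and above them in the right panel at every point, and in the middle panel they lie above them except at 6 h.

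The raised local background was seen at the genes and less between and around them. At peaks of Hist1 members it was 7.71 times the genome background in normoxia (median of 38 peaks), against 2.33 times at the 23 peaks between the genes within the blocks, 4.08 times at the 33 peaks of the stretch between the blocks, and 1.27 times at the 82 peaks within 2 Mb outside the cluster. At 12 h, the list with the most peaks, the values were 5.86, 2.38, 2.52 and 1.00 times in the same order. Within 5 kb of their starts, members with a peak in all 7 lists had a median of 1.5 other coding starts and 46 of 50 had at least 1, against a median of 0 and 27.7% of all genes with a peak in all 7 lists. Peaks covered 12.2% of the 10 kb around the members' starts in normoxia, against 8.33% for those genes. Among 172 other genes with a peak in all 7 lists and at least 2 other coding starts within 5 kb, the local background was 3.46 times the genome background in normoxia. It was 6.92 times for the 56 members with a normoxia peak. Those members were not limited by nearby starts or to peaks in all 7 lists, so the sets are not matched. The part of the crowding of starts in the low ratios was not tested.

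The clusters differed in this respect. The median of local over genome background was 4.69 for Hist1 members, 2.29 for Hist2 members, 1.4 for Hist3 members and 8.10 for Hist4h4. Hist4h4, the single Hist4 gene, had 80 to 127 reads at its summit in every list, which gave the highest mean summit percentile of all members (89.3), while its fold enrichment was 5.36 to 6.40 in hypoxia and 7.13 in normoxia. Hist2h2aa1 and Hist2h3c1, which share a peak and of which only 46.7% and 45.8% of the surrounding words were unique, had the lowest mean summit percentile (14.1).

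The members' peaks were about as wide as those of other genes. The median width was 803.5 bp in normoxia, against 696 bp for all genes. At the hypoxia times in order it was 747.5, 903.5, 734, 723, 760 and 714 bp, against 678, 841, 779, 742, 762 and 692 bp for all genes. Widths ranged from 200 bp to 1908 bp, the widest being the 12 h peak shared by Hist1h2be and Hist1h1e. The best peak of Hist1h1c had 2 or 3 summits and was 1360 to 1529 bp wide in every list but that of 36 h, where it had 1 summit and was 723 bp wide. The best peak of Hist1h1d had 1 summit and was 722 to 1198 bp wide from 24 h on, against 2 to 4 summits and 1420 to 1667 bp in normoxia and at 6 and 12 h.

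To compare conditions, the log2 ratio of fold enrichment in hypoxia over normoxia was centred on its median over the 10426 genes with a promoter peak in all 7 lists. Uncentred, that median was -0.36 at 6 h and between -0.25 and 0.00 at the other times, so changes are given relative to it. The median centred change of the 50 members was 0.28, -0.06, 0.02, 0.24, 0.09 and 0.27 on the log2 scale at the hypoxia times in order. The middle 50% of all genes lay between -0.20 and 0.20 at every time. The number of members above 0 was 45, 17, 27, 36, 29 and 41 of 50 in the same order. There was no steady course over time.

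The higher medians at 6, 36 and 72 h depended on how the peak was measured. With summit reads over the genome background in place of the fold over local background, the median centred change was -0.12, -0.03, 0.02, 0.05, 0.11 and 0.10 in that order. Without centring, the members' median change of fold enrichment was -0.08 at 6 h and 0.02 at 72 h, the times at which the median of all genes was lowest. The direction at 6 h thus differed between the measures, and the 6 h list also had the fewest peaks and the highest genome background.

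**Figure D4:**
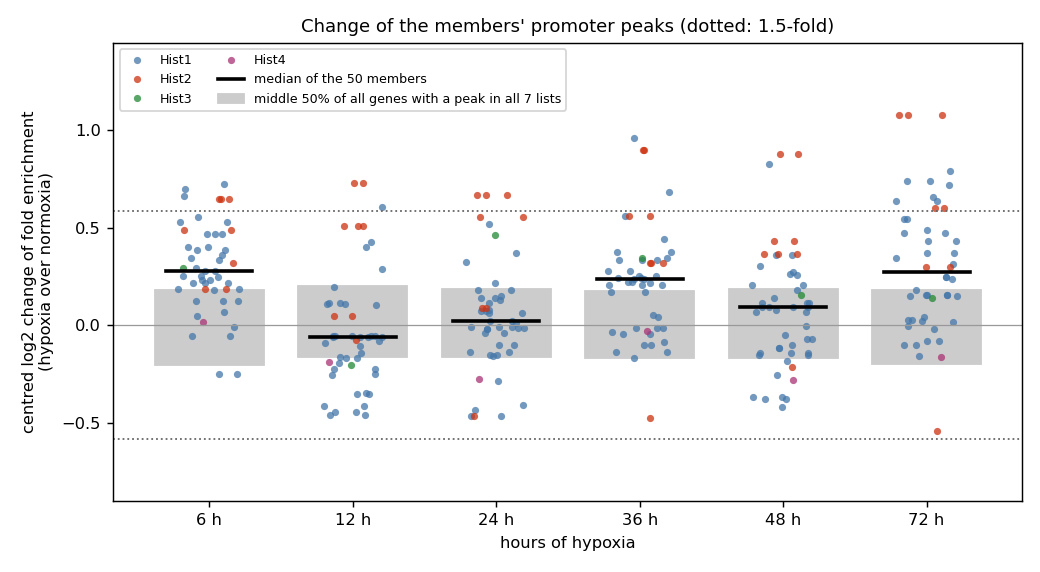
Centred log2 change of fold enrichment in hypoxia over normoxia for the 50 members with a promoter peak in all 7 lists (points, colored by cluster), at each hypoxia time. Black bars give the members' median, grey boxes the middle 50% of all genes with a peak in all 7 lists, and dotted lines a 1.5-fold change. Members lie past the upper line at every time and past the lower line at none.

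After centring, a change of 1.5-fold or more was seen upward only. Without centring, 0 members were higher and 2 lower at 6 h, and 3 were higher and 1 lower at 72 h. The uncentred shares of all genes are not given here. With centring, 6 of 50 members were higher by 1.5-fold or more at 6 h (2.59% of all genes) and 0 were lower (4.7%). At 12 h, 3 were higher (5.23%) and 0 lower (0.652%). At 24 h, 3 were higher (3.86%) and 0 lower (1.97%).

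At 36 h, 4 members were higher (3.26% of all genes) and 0 lower (2.64%). At 48 h, 3 were higher (3.85%) and 0 lower (2.23%). At 72 h, 12 were higher (3.57%) and 0 lower (4.3%). These members stood for 4, 2, 1, 3, 2 and 7 distinct regions at the hypoxia times in order, so although the share of members was above that of all genes at each time, it rests on few peaks. When the peak had to cover the start, 5, 1, 2, 1, 0 and 7 of 42 members were higher at the hypoxia times in order. The shares of all genes with a peak over a start in all 7 lists were 2.55%, 4.97%, 3.68%, 3.19%, 3.75% and 3.2%. By this rule the members' share was below that of all genes at 12, 36 and 48 h. At no time was a member lower, against 0.551% to 4.55% of all genes. No member was past 1.5-fold at 5 or more times in either direction, against 0.796% of all genes upward and 0.153% downward. Of the 50 members, 13 were above 0 at all 6 times (15.1% of all genes) and 2, Hist1h2ac and Hist1h2bc, were below 0 at all 6 times (14.4%).

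For most of these changes, the intervals of counting error in hypoxia and in normoxia overlapped. Such an overlap does not by itself place a change within counting error. An exact Poisson interval at 95% was set on each summit count, which covers counting error only and takes no account of the spread between cultures, and the intervals of the centred fold enrichment were compared between hypoxia and normoxia. They were apart for 0 members at 6, 12 and 24 h, against 0.307%, 0.23% and 0.144% of all genes. They were apart for 1 member at 36 h (0.201% of all genes) and for the same member at 48 h (0.249%). At 72 h they were apart for 3 members (0.374%), and in each case the hypoxia value was the higher.

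The 3 members at 72 h were Hist2h2ab, Hist2h2ac and Hist2h2be, H2A and H2B genes of Hist2 that share the peak over the divergent pair shown above. Its fold enrichment was 5.06 in normoxia and 6.18, 7.20, 7.95, 5.78, 6.11 and 8.96 at the hypoxia times in order. The peak was higher than in normoxia at every hypoxia time, with centred log2 changes of 0.65, 0.51, 0.67, 0.32, 0.37 and 1.08. It rested on 56 reads at 72 h (95% interval 42.3 to 72.7) and 17 reads in normoxia (9.90 to 27.2). Without centring, the intervals of its fold enrichment, 6.81 to 11.6 at 72 h and 3.06 to 7.93 in normoxia, overlapped. On the scale of summit reads over the genome background its centred change was 0.53 to 1.47 over the 6 times. A separate region at the Hist2h2ab start, also called in every list, had a lower fold enrichment of 2.84 to 4.50 in hypoxia and 4.24 in normoxia and so did not share this course.

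Averaged over the hypoxia times, the centred change had a median of 0.59 over 8 Hist2 genes, against 0.09 over 40 Hist1 genes. Hist2h2aa1 and Hist2h3c1 had a shared fold enrichment of 3.70 in normoxia and 3.29, 6.15, 5.38, 6.32, 6.38 and 3.83 in hypoxia, or centred changes of 0.19 to 0.90. Hist2h2bb had 6.77 to 8.85 in hypoxia and 6.55 in normoxia, with centred changes of 0.05 to 0.60. The same peak was the highest near Hist2h3b, with its median summit 954 bp from that start, while the peak over the Hist2h3b start had 3.19 to 5.62 in hypoxia and 3.97 in normoxia, with centred changes of -0.21 at 48 h to 0.63 at 36 h. The H4 gene Hist2h4 went the other way, with 8.16 in normoxia and 7.95, 7.74, 5.85, 5.38, 6.60 and 4.70 in hypoxia, and centred changes of -0.54 to 0.32. Since Hist2 genes share peaks, these values come from fewer peaks than genes, and among them only the peak of the divergent pair had intervals apart.

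The member at 36 and 48 h was Hist1h2af, an H2A gene, and its change came from a different peak being the highest. In normoxia and at 6 and 24 h its highest peak had its summit at -137, -142 and -82 bp from its start, upstream, with a fold enrichment of 3.19, 3.44 and 3.45. In the 12, 36, 48 and 72 h lists the highest peak had its summit 1371 to 1423 bp downstream, close to the start of Hist1h3g, with 4.86, 5.67, 5.30 and 4.64. The peak over the Hist1h2af start itself stayed between 3.12 and 3.61 in every list, and its centred changes of -0.02 to 0.46 were under 1.5-fold at all times.

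Among the other members past 1.5-fold, Hist1h4i, an H4 gene, had 4.14 at 6 h and 4.26 at 72 h, against 3.21 in normoxia, with centred changes of 0.73 and 0.66. Hist1h4j, an H4 gene, was higher by 0.66 at 6 h. Hist1h3i, the member of lowest rank, had values of 0.70 and 0.72 at 6 and 72 h that compare different peaks. Its 6 and 72 h peaks covered the start, where none was called in normoxia, and the region that held its normoxia peak, 407 bp from the start, had a fold enrichment of 2.54 at 6 h and 2.26 in normoxia and was not called at 72 h. Hist1h2ae and Hist1h2bg, a divergent pair, had 6.91 at 72 h and 4.93 in normoxia, a centred change of 0.74. Hist1h2be, an H2B gene, had 9.92 at 72 h and 7.6 in normoxia, a centred change of 0.64. This peak was also the highest near Hist1h1e, but the peak over the Hist1h1e start had 3.42 at 72 h and 4.86 in normoxia, a centred change of -0.26. Hist1h1c, an H1 gene, had 8.51 at 36 h and 5.78 in normoxia, a centred change of 0.69, but the 36 h peak did not cover its start, and the one that did had 4.75, a centred change of -0.16. For none of these were the counting intervals apart. Hist3h2a, the H2A gene of Hist3, had 6.01 to 9.44 in hypoxia and 6.91 in normoxia, and its centred changes of -0.20 to 0.46 stayed under 1.5-fold, as did those of Hist4h4 (-0.28 to 0.02).

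Between the histone genes, 61 peaks were called in normoxia and 52, 79, 76, 64, 76 and 64 at the hypoxia times in order. As for the lists as a whole, the number was lowest at 6 h and highest at 12 h, but with the 20000 strongest peaks of every list it was 14 in normoxia and 13, 6, 7, 9, 7 and 9 at the hypoxia times in order, with 12 h the lowest. Of all peaks called between the genes, 33 in normoxia and 26, 42, 35, 32, 36 and 31 in hypoxia lay in the 1487 kb between the Hist1 blocks. The others lay within the Hist1 blocks and Hist2, none in Hist3 or at Hist4h4. Within the clusters this came to 3.26 to 5.13 peaks per 100 kb in hypoxia and 3.51 in normoxia. In the stretch between the blocks it came to 1.75 to 2.82 per 100 kb in hypoxia and 2.22 in normoxia. Merged over the lists, the spans held 147 regions, of which 54 lay within 1 kb of a member start and 93 between the genes. Of the 54, 37 were in all 7 lists, and of the 93, 35 were in all 7 lists and 16 in a single list. The matching shares over all merged regions of the genome are not given here, so these counts do not set the clusters apart from it.

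**Figure D5:**
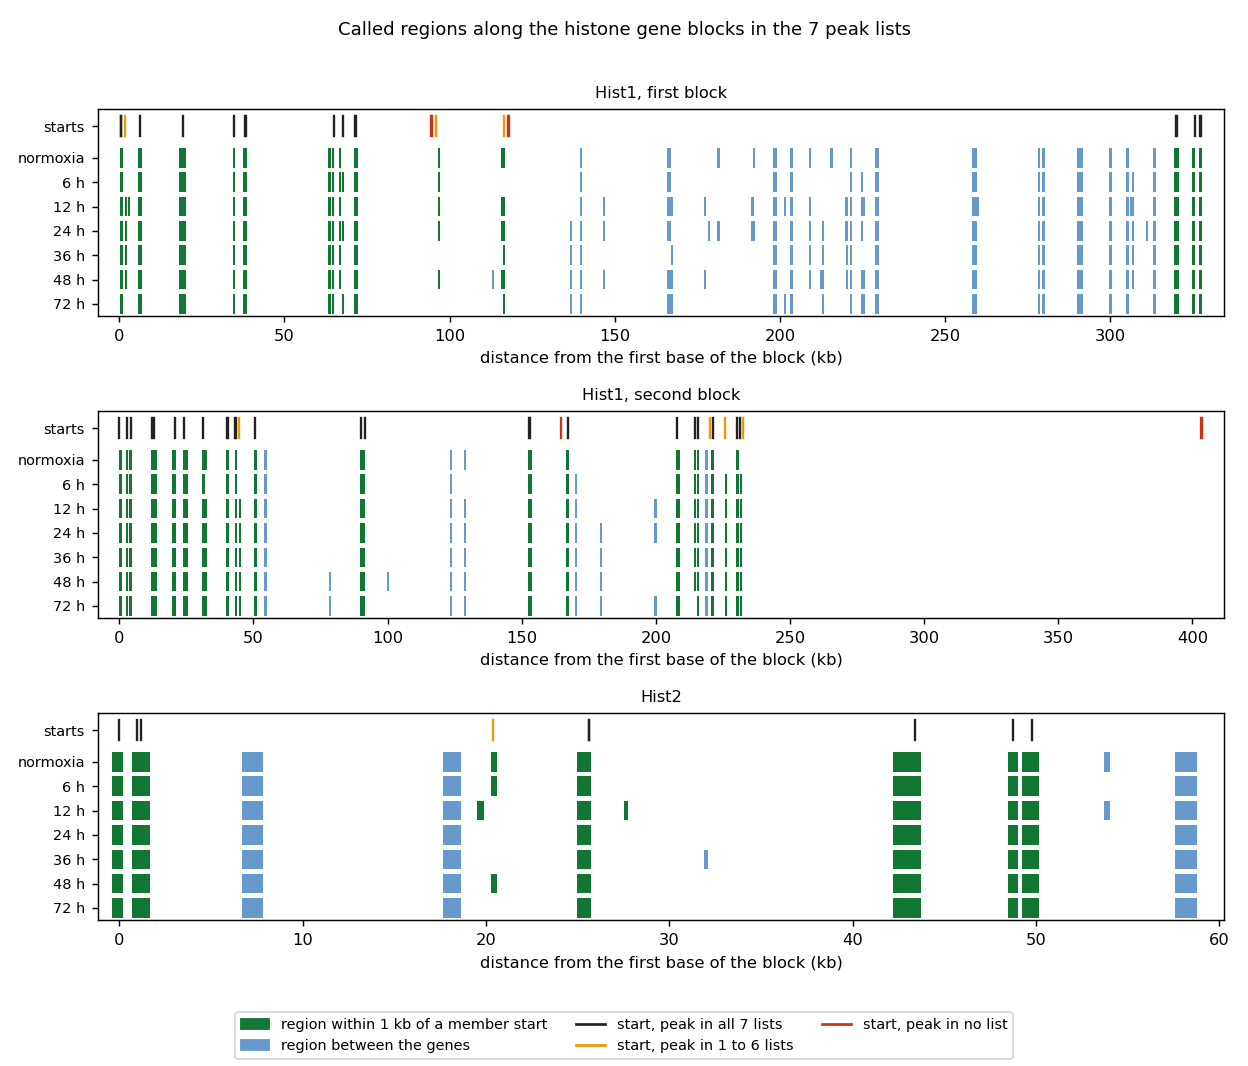
Called regions along both Hist1 blocks and Hist2 (x axis, kb from the first base of the block), in a row for normoxia and for each hypoxia time, with regions within 1 kb of a member start in green and regions between the genes in blue. Each region is drawn over its extent merged across the 7 lists in every list that called it, and ticks in the top rows mark the annotated starts, black for a peak in all 7 lists, orange for 1 to 6 lists and red for none. Green columns are mostly unbroken from normoxia to 72 h, and blue regions crowd the part of the first block where no histone gene lies.

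The strongest regions between the genes lay at other genes or apart from any coding start. By mean -log10 q over the 7 lists, the first was chr13:23460521-23461624 at the start of the zinc finger gene Zfp322a (67.04), with a fold enrichment of 10.97 to 14.8 in hypoxia and 12.6 in normoxia. The second and the third, chr13:23493180-23494364 (45.4) and chr13:22142156-22143522 (44.9), overlapped no annotated gene, and the third lay 7755 bp from the start of Hist1h2bj. The next 2 lay at the start of the zinc finger gene Zfp184, chr13:22036491-22037714 (36.2), and at the start of the serine protease gene Prss16, chr13:22097451-22099226 (29.9). In all, 9 of the 93 regions lay at the start of another coding gene, 6 of them in all 7 lists.

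Between the genes, 1 region was not called in normoxia but was called at all 6 hypoxia times, chr13:23792739-23793374, at 2733 bp from the start of Hist1h4c and over no annotated gene. Its fold enrichment was 3.74, 3.74, 3.91, 3.26, 3.61 and 3.45 at the hypoxia times in order. Likewise 1 region was called in normoxia alone, chr13:22022902-22023101, with a fold enrichment of 4.44 and a -log10 q of 4.4. Both had low values beside the 5 regions named above, and the share of regions with either pattern over the genome is not given here. In Hist2, the regions chr3:96030507-96031665, chr3:96041491-96042461 and chr3:96081428-96082608 lay between the genes and were called in all 7 lists, the second over the pseudogene Hist2h3c2 and the third within the annotated gene body of Hist2h2bb.

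Genes that act on histone transcripts and histone proteins had accessible promoters in every condition. All 12 genes for transcription and 3′ end formation of histone mRNAs had a promoter peak in every list, at a median percentile of fold enrichment of 64.8. None of their 72 centred changes (12 genes at 6 times) was past 1.5-fold. Of all genes with a peak in all 7 lists, 2.59% to 5.23% were past it upward and 0.652% to 4.7% downward, depending on the time. Among them, Npat, the coactivator of histone genes, had fold enrichments of 11.2 to 14.2, Casp8ap2, the FLASH component of histone locus bodies, had 13.9 to 16.4, and Hinfp, an activator of H4 genes, had 11.9 to 15.9. Slbp, which binds the stem-loop, had 6.62 to 11.7, and Pou2f1, whose product binds the octamer, had 5.60 to 7.56. All 7 chaperone and acetyltransferase genes (Asf1a, Asf1b, Chaf1a, Chaf1b, Nasp, Hat1 and Hira) had a peak in all 7 lists as well, at a median percentile of 72.7. None of their 42 changes was past 1.5-fold, against the same shares of all genes.

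Of the replication-independent histone variants, 10 of 11 were in the annotation and 8 had a promoter peak in every list, at a median percentile of 60.02. H2afy2 and H1fx had none in any list, and H1f0 was not found under that symbol. Of their 48 changes 0 were past 1.5-fold upward and 2 downward, beside the shares of all genes given above. Both were at H2afy, the gene of macroH2A, whose fold enrichment ranged from 3.98 to 10.6 and whose centred changes ran from -1.17 to -0.11. H2afj, which neighbors Hist4h4, ranged from 5.04 to 5.73. By fold enrichment, the medians of the factors, chaperones and variants thus stood in the upper part of the genes with a peak, and that of the replication-dependent members stood in the lower part.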

How the data were processed

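ATAC-seq libraries of 4T1 cells had been summarized in 7 peak lists, each from the pooled reads of 2 samples. The methods and processing notes name alignment to mm9 with Bowtie2 2.1.0, a filter on mapping quality, removal of duplicates (Picard 1.79) and of mitochondrial reads, and narrow peak calling with MACS2, whose version is not given in the sources used here. In the deposited files, fold enrichment is a ratio, (summit reads + 1) over (local background + 1), and significance stands as -log10 p and -log10 q; the authors did not scale the lists to each other. The weakest peaks had a -log10 q of 1.30 to 1.31, about the q of 0.05 named in the labels; the methods state a stricter limit for bulk samples, so the deposited lists hold weaker peaks than that limit would leave.

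Here an interval was kept once, with the summit of highest -log10 q, and the peak of highest fold stood for a gene. Genes came from the GENCODE annotation of NCBIM37. Summit reads and background were solved from each fold and -log10 p, with a misfit of at most 0.000255. They are extended reads of pooled libraries, not independent molecules. Words of 75 bases were counted over the genome on both strands. Peak overlap, planted changes and read recovery were tested on simulated data.

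The members, gene lists, motifs and rules were chosen with earlier results of these data known. Members were named where they lacked a peak in a list, had 1 of the 5 highest or 5 lowest mean percentiles of fold, were past 1.5-fold in 1 direction at 5 or more times, or belonged to Hist2, Hist3 or Hist4. Regions between genes were named if they were in every list and had 1 of the 5 highest mean -log10 q, or if called at all hypoxia times without normoxia or the reverse. The other members past 1.5-fold, those named for width or summit position, 3 Hist2 regions, the counting intervals and the rule of a peak over the start were chosen after values were seen. Other promoter distances, thresholds and scalings were tried as alternatives. Reads per sample were not analysed here. A marker gene is not reported here. Python 3.11.15 was used with numpy 2.4.6, pandas 2.3.3, scipy 1.17.1, numba 0.67.0 and matplotlib 3.10.9.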

Additional observations from a re-analysis of the deposited data

How the results depend on the processing

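No paired analysis was possible because each list pools the 2 samples of a group. Of the values recomputed, 152 counted as unchanged, 44 as moved and 3 changed sign. The limits were 1.5 times for counts and 0.1 on the log2 scale for median changes. Widths were judged by a relative limit, and changes of percentile by their sign only. Leaving out 1 hypoxia list at a time gave 50 to 52 members with a peak in the remaining lists. With the 20000 strongest peaks of each list, 17 members had a peak in all 7 lists and 27 differed between normoxia and hypoxia. In list order, 31, 38, 28, 30, 35, 25 and 40 members had a peak. The shares of all genes under this limit were not computed. Between the genes, 14, 13, 6, 7, 9, 7 and 9 peaks were left in list order. Peaks of -log10 q 5 or more left 46, 40 and 41 between the genes at 24, 36 and 72 h. Without the stretch between the Hist1 blocks, 28, 26, 37, 41, 32, 40 and 33 were left. Without centring, the median change was -0.081 at 6 h (sign changed), 0.11 at 36 h and 0.021 at 72 h, with 0 members higher and 2 lower at 6 h, 1 lower at 36 h, and 3 higher and 1 lower at 72 h. With summit reads it was -0.12 at 6 h (sign changed), 0.046 at 36 h and 0.095 at 72 h. At 2-fold, 0 members were higher at 6, 12, 24, 36 and 48 h and 3 at 72 h. The shares of all genes at 2-fold or without centring are not given here. With a peak over the start itself, an alternative chosen after seeing the data, the median was -0.020 at 48 h (sign changed) and 0.16 at 72 h. By that rule 1, 1, 0 and 7 members were higher at 12, 36, 48 and 72 h, against 4.97%, 3.19%, 3.75% and 3.2% of all genes. The cause of these shifts was not tested, apart from fewer peaks entering at stricter thresholds. Summits of 7 to 127 reads limit each ratio, and the 6 h list is the shallowest in peaks.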
